A study of Mus musculus with 21 samples.

Results

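The cytosolic ribosomal protein genes encode the protein components of the ribosome that translates messenger RNA in the cytoplasm. They were taken as the rows of the deposited count table whose symbol is Rpl or Rps followed by a number, with an optional paralog letter, together with Rplp0, Rplp1, Rplp2 and Rpsa. Rows whose symbol marks a pseudogene (-ps) and the S6 kinase genes were left out. Rps4l, a transcribed processed pseudogene in GENCODE, matched by symbol and was kept. The choice used symbols and no measured value. It gave 83 of the 17164 counted genes, 50 for the large and 33 for the small subunit, on 19 chromosomes with 4 on the X. All 83 passed the filter on low counts, which kept 16797 genes.

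RNA was sequenced from C57BL/6 mouse cells labelled as retinal ganglion cells (the projection neurons of the retina, with axons in the optic nerve) 3 days after the nerve was crushed. The control group (n = 4) received a control guide, and the other groups received guides against the bZIP transcription factors ATF3 (n = 5), ATF4 (n = 2), CEBPG (n = 4) or CHOP (n = 5), and are called knockouts in the labels. Every group had the injury, so no comparison here is with an uninjured retina. The delivery of the guides and of the nuclease, and the gate of the cell sort, were not given in the sources used here. All mice were 6-7 weeks old in the submitters' sheet. The sheet places the controls in batch 2 (male), the ATF3, CEBPG and CHOP knockouts in batch 3 (female) and the ATF4 knockouts in batch 1 (1 library given as female and 1 as male). Controls and knockouts never shared a batch, so knockout and batch cannot be told apart in any comparison with the controls, and outside ATF4 neither can knockout and sex. The comparisons among the ATF3, CEBPG and CHOP knockouts lie within batch 3. Counted reads per library ran from 6401446 to 32776378.

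As background, a ribosome holds 1 copy of nearly every ribosomal protein, and cells make the proteins in step with ribosomal RNA. Growth signals act through the kinase complex mTORC1, which controls translation of messenger RNAs that begin with a cytosine followed by a run of pyrimidines, the 5′ terminal oligopyrimidine (TOP) tract. Nearly all ribosomal protein messages carry this tract. mTORC1 activity in injured ganglion cells is a known determinant of axon regrowth. ATF4, CHOP and CEBPG belong to the integrated stress response, a program set off when translation initiation is reduced by phosphorylation of eIF2.

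Start sites of a few members are printed here because the TOP tract is defined by the first bases of the message. Each window below holds 30 bases, 15 before the annotated start and 15 from it onward, written 5′ to 3′ on the gene's strand, with runs of 5 or more C or T in capitals. Rpl27a, Rps18 and Rps27 start inside a pyrimidine run, while the other windows do not and that printed for Rps19 holds no run. Rps19, Rps27l and Rpl10a have further annotated starts that are not printed. The Rps19 window at chr7:24884898-24884927 does hold a run. Rps23 and Rps19 are among the genes with the largest rises described later. Rps27l and Rpl10a are shown because they fell in some comparisons where the median of the group was positive. The starts and sequences are those of RefSeq on GRCm38.p6 (mm10).
Rpl27a (chr7:109519180-109519209, plus strand): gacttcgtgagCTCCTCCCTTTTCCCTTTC
Rps18 (chr17:33955651-33955680, minus strand): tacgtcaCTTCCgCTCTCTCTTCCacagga
Rps27 (chr3:90213634-90213663, minus strand): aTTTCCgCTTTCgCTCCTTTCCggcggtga
Rps23 (chr13:90923107-90923136, plus strand): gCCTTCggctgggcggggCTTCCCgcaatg
Rps19 (chr7:24884577-24884606, plus strand): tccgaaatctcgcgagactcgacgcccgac
Rps27l (chr9:66946071-66946100, plus strand): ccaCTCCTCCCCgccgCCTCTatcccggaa
Rpl10a (chr17:28328456-28328485, plus strand): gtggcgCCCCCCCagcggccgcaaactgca

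Of the 83 genes, 62 matched the RefSeq promoter table by symbol. In 13 of them (20.97%) the annotated first base was a C followed by at least 4 more C or T, against 3.01% of the 27025 genes of that table. Within 10 bases of the start the same run was found in 37 (59.7%) against 34.4% of genes. In windows of 300 bases, 250 before to 50 after the start, read on both strands, the letters CCGGAAG, a core of ETS-family binding sites, were found in 41.9% of the matched members and 9.93% of genes. CTTTCC was found in 53.2% and 29.3%. The letters TATAAA were found in 11.3% of the members and 15.7% of genes. These are matches of letters at annotated starts, which can lie some bases away from the starts used in these cells.

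The labelled cell type was compared with its markers. Among 12 ganglion cell genes, the defining marker Rbpms was at 22.9 ± 10.3 CPM (read counts scaled to library size with TMM factors; SD, n = 4) in the controls and Slc17a6, the glutamate transporter of ganglion cells, at 42.8 ± 11.1. The microglial gene C1qb was at 971 ± 246 CPM in the same libraries, and the 14 rod genes together took 3.99% to 6.04% of their reads. The 12 ganglion cell genes together took 0.0583% to 0.0783% of the control reads and 0.0558% to 0.0799% in the knockouts. Pou4f2 was low in the controls (1.51 ± 1.23 CPM) and at 0 in all 4 CEBPG knockout libraries, while Thy1 was at 6.43 CPM in the controls and 24.99 CPM there. Of the 12 genes, 1 rose and 4 fell in the CEBPG knockouts against control. The libraries therefore held RNA of several retinal and immune cell types, and in such bulk samples fewer cells of a type and less RNA per cell cannot be told apart.

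**Figure D1:**
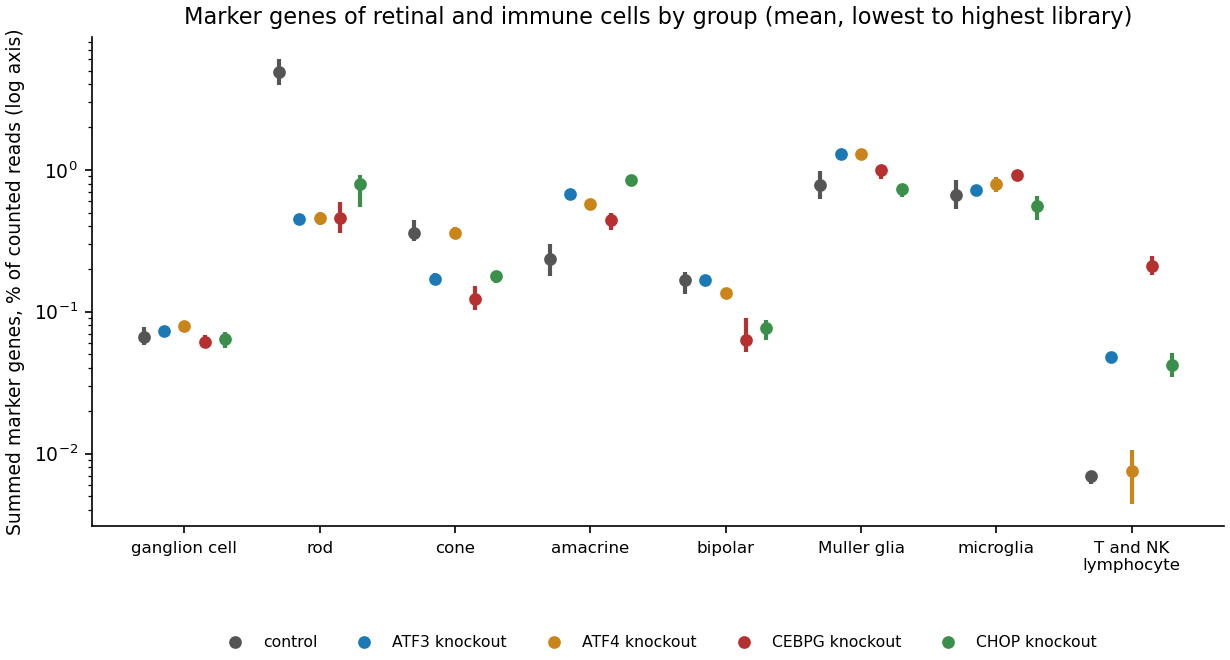
Summed reads of 8 marker gene lists as a percent of counted reads (log axis), by group, with points for group means and lines from the lowest to the highest library (n = 4 control, 5 ATF3, 2 ATF4, 4 CEBPG and 5 CHOP knockout libraries). Rod genes are highest in the controls, and T and NK lymphocyte genes are highest in the CEBPG knockouts, at 0.209% against 0.00690% in the controls.

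Ribosomal protein genes took a small share of the counted reads, and that share was largest in the CEBPG and ATF4 knockouts. It was 0.392%, 0.386%, 0.523% and 0.478% in control replicates 4, 5, 7 and 8 (mean 0.445% ± 0.0669, SD, n = 4). In the CEBPG knockouts it was 0.7999%, 0.938%, 0.761% and 0.846% in replicates 6, 8, 9 and 10 (0.836% ± 0.0761, n = 4), and each of these libraries lay above each control. The 2 ATF4 knockout libraries, at 0.851% and 0.632%, also lay above each control but stood far from each other (0.742% ± 0.155, n = 2). The ATF3 knockouts ran from 0.544% to 0.638% (0.580% ± 0.0376, n = 5), again with no overlap with the controls. The CHOP knockouts ran from 0.404% to 0.523% (0.475% ± 0.0481, n = 5) and overlapped the controls. Within batch 3, the lowest CEBPG knockout was above the highest ATF3 knockout, and the lowest ATF3 knockout was above the highest CHOP knockout. Taking the share over reads on neither ribosomal protein nor rod marker genes gave 0.470% for the controls and 0.847% for the CEBPG knockouts.

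**Figure D2:**
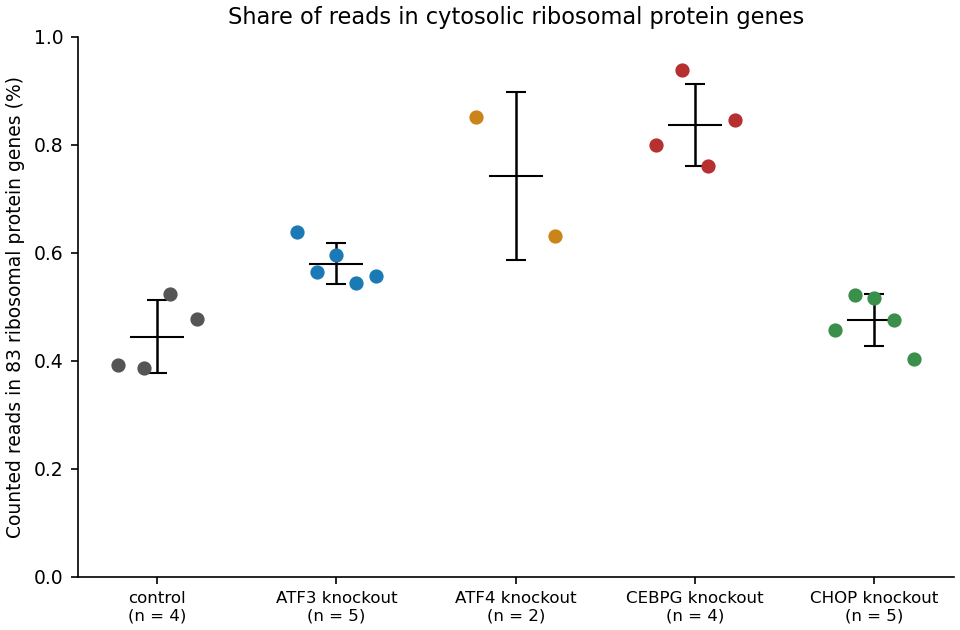
Percent of counted reads on the 83 ribosomal protein genes in each library (points), with group means and SD (bars). The 4 CEBPG knockouts sit between 0.761% and 0.938%, above all control, ATF3 and CHOP libraries, and the 2 ATF4 knockouts are 0.851% and 0.632%.

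Levels per transcript length differed widely among the 83 genes, some of which are paralog copies, Rpl39l among them. In the controls Rpl41, which encodes a very short large-subunit protein, was highest at 274 RPKM (CPM per kilobase of transcript), followed by Rpl13 at 162, Rplp0, the scaffold of the stalk, at 158, Rpl4 at 155 and Rpl10a at 150. The lowest were Rpl39l, listed at 0 in all control libraries, Rpl26 at 2.50, Rpl30 at 4.29, Rps15a at 4.44 and Rps27 at 6.88. These lengths come from 1 annotated transcript per gene, and that of Rps15a was 5179 bases against a median of 805 over the 83, so its low value per length rests on the annotated model. GENCODE names 299 loci as pseudogenes of 61 members, and the rule by which reads shared with such copies were counted was not given in the sources used here. Low values, as for Rpl26, Rpl30 and Rps27, are therefore uncertain.

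The groups were then compared gene by gene. Fold changes are log2 values from edgeR, positive where the group named first was higher, and calls required a Benjamini-Hochberg adjusted p below 0.05 over all 16797 genes tested. By group means, the ATF4 knockouts had the highest mean CPM for 42 members and the CEBPG knockouts for 38, while the controls had the lowest mean for 51 and the CHOP knockouts for 31. The 4 comparisons with control share the same control libraries, and the 3 within batch 3 share knockout libraries, so similar values in them are not independent.

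**Figure D3:**
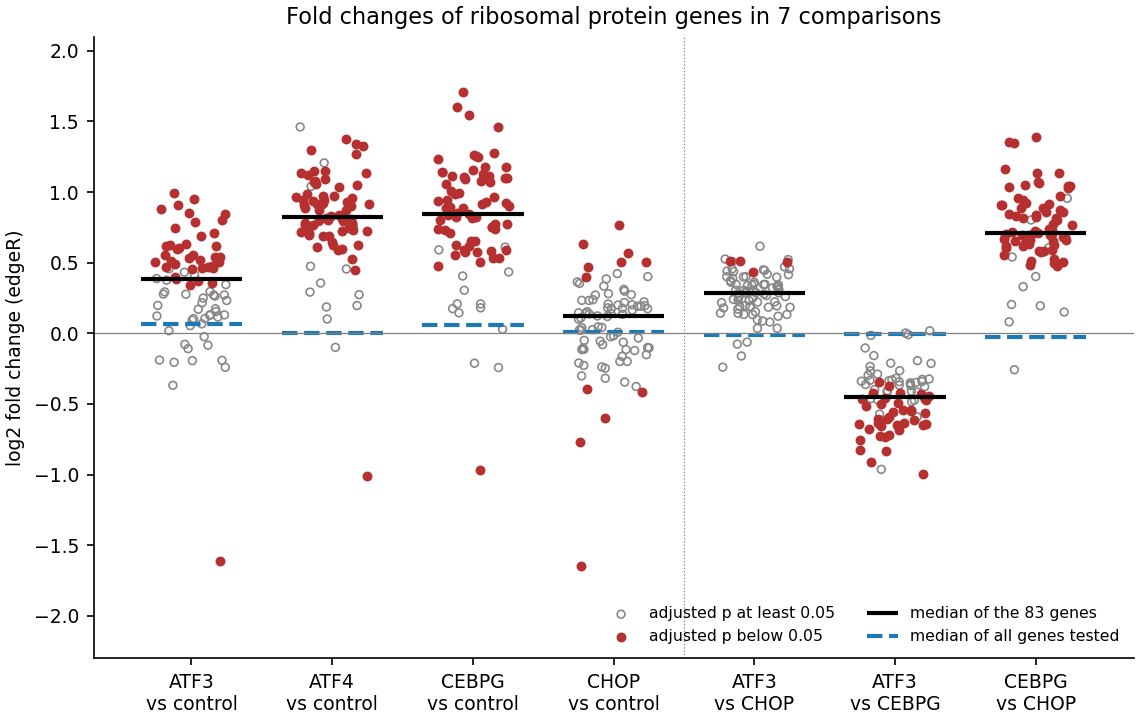
Log2 fold changes of 82 ribosomal protein genes in 7 comparisons (points; filled where adjusted p was below 0.05; Rpl39l, with 71 reads in all 20 libraries, is not drawn), with the median of the 83 genes (black) and of all genes tested (blue, dashed). The median is 0.85 for CEBPG knockouts against control and 0.71 against CHOP knockouts, and the separate low point in the 4 comparisons with control is Rpl10a.

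In the CEBPG knockouts the ribosomal protein genes were higher than in the controls nearly across the whole set. Of the 83, 67 rose and 1 fell, where 18.3% of all genes tested rose and 15% fell. The median log2 fold change was 0.85, a 1.80-fold rise, against 0.06 over all genes. For 62 members every CEBPG library lay above every control, which held for 14.1% of all genes. The 15 members that did not pass included Rpl5, Rpl22, Rpl26, Rpl30, Rpl34 and Rps27, and the paralogs Rpl7l1, Rpl22l1, Rpl39l and Rps4l. With only these 2 groups in the fit 57 rose, and with the first quality component of the sheet as a covariate 63. Of all genes, 3082 rose in the main fit, 2031 with only the 2 groups and 2532 with the covariate.

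Rpl32, a large-subunit protein, showed the largest rise there. It was at 49.8, 53.1, 64.3 and 73.3 CPM in the controls and at 201, 231, 177 and 179 CPM in the CEBPG knockouts (log2 fold change 1.71, SE 0.17, adjusted p = 2.77e-08). The groups were far from overlapping. Rps23, whose protein lies at the decoding centre of the small subunit, was at 35.4, 39.8, 46.5 and 44.4 CPM in the controls and 110, 165, 95.8 and 115 CPM in the CEBPG knockouts (1.55, SE 0.17, adjusted p = 1.84e-07). Replicate 8 was the high library for both genes. Rps19, the small-subunit gene most often mutated in Diamond-Blackfan anaemia, was at 53.2, 46.5, 79.1 and 71.0 CPM in the controls and 153, 200, 164 and 173 CPM in the knockouts (1.46, SE 0.18, adjusted p = 6.41e-07). Rpl37a rose by 1.60, and its libraries did not overlap the controls. Reads of Rpl32 may include those of Cand2, which overlaps it on the opposite strand, since the strand setting of the counting is not known here.

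Markers of other cell types moved in the same libraries. The 12 measured T and NK lymphocyte genes all rose and took 0.181% to 0.248% of the reads in the CEBPG knockouts against 0.00613% to 0.00744% in the controls, with Cd3g at 325 ± 60.3 and 0.821 ± 0.181 CPM. Of the 15 microglial genes 9 rose and none fell, and all 14 rod genes fell. The part of these cells in the ribosomal protein result was not tested. The first quality component was 6.12, 1.72, -3.87 and 0.103 in CEBPG replicates 6, 8, 9 and 10, and ran from 4.195 to 7.71 in the controls. The part of library quality in the result was not tested.

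Within batch 3 and in 1 sex, the CEBPG knockouts were also higher than the CHOP knockouts. Here 71 of 83 rose and 0 fell (13.5% and 13.2% of all genes), with a median of 0.71, or 1.64-fold, against -0.03 over all genes. For 67 members the groups did not overlap, against 11.3% of all genes. At an unadjusted p below 0.05, 75 differed in either direction. The largest rises were in Rps27l (1.39), Rps19 (1.35), Rpl32 (1.35), Rps23 (1.16) and Rps18 (1.14). Rps19 was at 61.3, 69.8, 78.6, 70.5 and 57.4 CPM in CHOP replicates 1 to 5, below each CEBPG knockout (SE 0.16, adjusted p = 1.92e-06). Rps18, of the small-subunit head, was at 121, 116, 92.7 and 110 CPM in the CEBPG and 45.8 to 54.8 CPM in the CHOP knockouts (SE 0.13, adjusted p = 6.43e-07); it overlaps Vps52 on the opposite strand. The 12 members that did not pass were Rps4l, Rpl26, Rpl30, Rpl22l1, Rpl34, Rpl28, Rpl5, Rpl7l1, Rpl22, Rpl39, Rps27 and Rpl39l. Between the same libraries all 12 lymphocyte genes and 13 of 15 microglial genes were higher in the CEBPG knockouts, and 10 of 12 amacrine genes were lower. The part of these differences in the result was not tested.

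**Figure D4:**
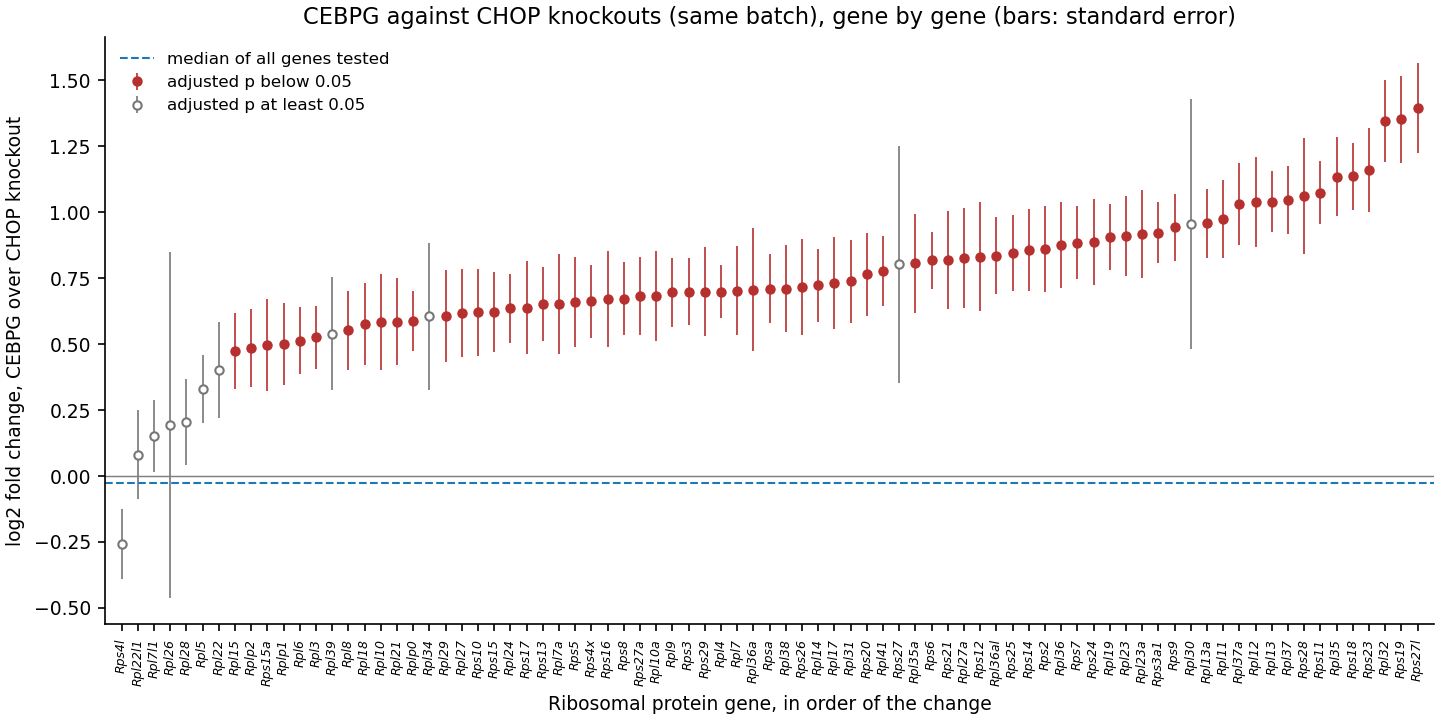
Log2 fold change with its standard error of 81 of the 83 ribosomal protein genes between the CEBPG (n = 4) and CHOP (n = 5) knockouts of batch 3, in order of size. Filled points passed the test, and the order runs from Rps4l at -0.26 to Rps27l at 1.39 around a dashed line for the median of all genes at -0.03.

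Against the ATF3 knockouts the CEBPG knockouts were higher too, by a smaller amount. Written as ATF3 against CEBPG, 39 members fell and 0 rose (10.2% and 10.1% of all genes), with a median of -0.45 against 0.00 over all genes. For 44 members every ATF3 library lay below every CEBPG library, against 11.1% of all genes. The largest falls were in Rps27l (-0.99, SE 0.17, adjusted p = 0.000168), Rpl32 (-0.91), Rps23 (-0.83), Rps19 (-0.83) and Rpl36al (-0.76). Rpl32 was at 113, 97.3, 116, 96.6 and 102 CPM in the ATF3 knockouts, between the controls and the CEBPG knockouts without overlap on either side. Without both CEBPG replicates 6 and 8, the group's smallest libraries at 9000250 and 17007490 counted reads, 24 fell, and with the quality component as a covariate 25 fell. Of all genes, 1718 fell in the main fit, 1334 without the 2 replicates and 1076 with the covariate. Lymphocyte markers were at 0.0455% to 0.0519% in the ATF3 knockouts, below the CEBPG knockouts, and 11 of these 12 genes fell in the comparison.

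In the ATF4 knockouts 67 of 83 members rose against control and 1 fell (16.6% and 14.6% of all genes), with a median of 0.82, or 1.77-fold, against 0.00 over all genes. For 69 members both ATF4 libraries lay above every control, against 23.7% of all genes. Rps4x, the X-linked S4 protein, rose most: it was at 30.5, 32.6, 48.6 and 41.4 CPM in the controls and 113 and 86.8 CPM in ATF4 replicates 1 and 3 (1.38, SE 0.17, adjusted p = 2.43e-06). Rps21 (1.34), Rpl27a (1.33), Rpl39 (1.30) and Rplp1 (1.27) followed. In each of these genes replicate 1 was the higher library. Rpl27a was at 37.0 and 27.2 CPM in replicates 1 and 3 and at 11.3 to 14.6 CPM in the controls. Here the lymphocyte genes took 0.0107% and 0.00440% of the reads in the 2 libraries, which lie on either side of the controls, and 7 of the 12 rose and 1 fell, with Cd3g at 6.48 ± 8.13 CPM (n = 2) against 0.821. All 14 rod genes fell, 10 of 12 amacrine, 8 of 13 Müller glia and 6 of 12 ganglion cell genes rose, and of 15 microglial genes 6 rose and 2 fell. The part of these differences in the result was not tested.

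The size of the ATF4 difference varied between its libraries and with the treatment of transcript length. Without replicate 1 the median of the members was 0.55, and without replicate 3 it was 1.08. When the trend of each library over transcript length was removed, 33 members rose with a median of 0.37. Of all genes, 2559 rose in that fit and 2794 in the main fit. Short transcripts were higher in these libraries over all genes (Spearman rank correlation of -0.16 between fold change and length across 16627 genes, which are not independent), and the members are short, with a median length of 805 bases against 2741 over all genes. The corresponding medians after removal of the length trend were 0.74 for CEBPG against control and 0.53 for CEBPG against CHOP. The same correlation with length over all genes was -0.17 for CEBPG against CHOP and -0.16 for ATF3 against CHOP. It was 0.02, 0.09 and 0.16 for CEBPG, ATF3 and CHOP against control, and 0.10 for ATF3 against CEBPG. The part of transcript length in these results was not tested.

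The ATF3 knockouts showed a smaller rise. Of the 83, 39 rose and 1 fell against control (18.6% and 14.8% of all genes), with a median of 0.39, or 1.31-fold, against 0.06 over all genes. Rpl37a was at 29.1, 35.6, 36.5 and 45.7 CPM in the controls and at 85.0, 69.2, 75.02, 70.5 and 65.3 CPM in the ATF3 knockouts (0.99, SE 0.16, adjusted p = 4.30e-05), with no overlap. Rpl3, whose protein lies beside the peptidyl transferase centre, was at 98.5 to 118 CPM in the controls and at 187 to 226 CPM in the ATF3 knockouts (0.95, SE 0.12, adjusted p = 2.00e-06). Its reads may include those of Syngr1, which overlaps it on the opposite strand. Rplp1 (0.91), Rpl27a (0.88) and Rps15a (0.85) were next. For 34 members every ATF3 library lay above every control, against 18.9% of all genes. The count fell to 22 without control replicate 5 and to 4 with the quality component as a covariate, while the median there was 0.33. Over all genes, 3125 rose in the main fit, 2489 without control replicate 5 and 1085 with the covariate. That component was from -5.54 to -2.60 in the ATF3 knockouts, apart from the controls. All 12 lymphocyte genes rose and all 14 rod genes fell here too, and their part in the result was not tested.

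In the CHOP knockouts most members did not pass the test against control. Of the 83, 7 rose and 5 fell (18.1% and 15.4% of all genes), both below the background, with a median of 0.12 against 0.01 over all genes. Without overlap, 4 lay above and 5 below the controls, against 15.4% and 13.5% of all genes. Rps15a rose most: it was at 19.9, 19.1, 23.8 and 29.1 CPM in the controls and at 37.6, 29.7, 42.7, 45.9 and 40.2 CPM in the CHOP knockouts (0.77, SE 0.18, adjusted p = 0.00178), without overlap. With the length trend removed its change was 0.50 and no longer passed (adjusted p = 0.0531). The other rises were in Rpl3 (0.63), Rpl37a (0.57), Rplp1 (0.51), Rps16 (0.51), Rps4x (0.47) and Rpsa (0.40). For these 7 genes the same controls gave changes of 0.69 to 0.99 against the ATF3, 0.83 to 1.38 against the ATF4 and 1.01 to 1.60 against the CEBPG knockouts. Rps16 no longer passed without control replicate 5 (adjusted p = 0.195), and Rplp1 did not pass there either (adjusted p = 0.0993).

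The members that fell in the CHOP knockouts were Rpl10a, Rps27l, Rpl41, Rps15 and Rpl7l1. Rpl41 was at 104, 107, 140 and 128 CPM in the controls and at 71.1, 86.2, 87.5, 81.5 and 69.3 CPM in the CHOP group (-0.60, SE 0.13, adjusted p = 0.00118), and the groups did not overlap. Rps15, a small-subunit head protein, fell by 0.41 and Rpl7l1, a paralog of Rpl7, fell by 0.39. Rps15 did not pass without control replicate 8 (adjusted p = 0.108), and Rpl7l1 did not pass without CHOP replicate 3 (adjusted p = 0.0592). With the length trend removed 23 members rose in the CHOP knockouts, with a median of 0.22. Cell type markers moved in this comparison too. In the main fit 11 of 12 lymphocyte and 11 of 12 amacrine genes rose. All 14 rod, 11 of 12 bipolar and 9 of 10 cone genes fell, and of 15 microglial genes 1 rose and 5 fell. The part of these differences in the result was not tested.

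Between the ATF3 and CHOP knockouts, again within batch 3, 4 members rose and 0 fell (1.51% and 0.756% of all genes), with a median of 0.29 against -0.01 over all genes. The 4 were Rpl41 (0.51), Rps9 (0.51), Rps18 (0.50) and Rps3a1 (0.43). Rps9, of the small-subunit body, was at 177, 155, 176, 145 and 152 CPM in the ATF3 and at 112, 115, 137, 114 and 88.1 CPM in CHOP (SE 0.12, adjusted p = 0.0218). For 25 members every ATF3 library lay above every CHOP library, against 4.47% of all genes. In the same comparison 10 of 12 bipolar genes rose and 1 fell, 9 of 14 rod genes fell, and 4 of 15 microglial genes rose, and their part in the result was not tested. At an unadjusted p below 0.05, 38 members differed in either direction. The number that passed ranged from 0 without ATF3 replicate 5, without ATF3 replicate 7 or without CHOP replicate 5 to 20 with only these 2 groups in the fit, and 10 passed with DESeq2.

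Rpl10a, a protein of the large-subunit L1 stalk, fell in all 4 comparisons with the shared controls, where the median of the set was positive. It was 1 of the 5 members that fell in the CHOP knockouts. It was at 94.1, 139, 117 and 149 CPM in the controls. It was at 41.5, 47.7, 37.8, 34.3 and 42.3 CPM in the ATF3 knockouts (-1.61, SE 0.17, adjusted p = 1.11e-07) and at 35.4, 53.3, 41.3, 33.2 and 35.2 CPM with CHOP knocked out (-1.65, SE 0.17, adjusted p = 7.65e-08). No knockout library of any group reached the lowest control. With ATF4 knocked out it was at 72.0 and 51.7 CPM (-1.01, SE 0.23, adjusted p = 0.00175, and adjusted p = 0.0572 without replicate 3). In the CEBPG knockouts it was at 58.5, 81.6, 51.9 and 63.2 CPM (-0.97, SE 0.18, adjusted p = 0.000205). Within batch 3 it was higher in CEBPG than in CHOP knockouts (0.68, SE 0.17, adjusted p = 0.00457), and its ATF3 against CEBPG change was -0.65 (SE 0.17, adjusted p = 0.00859). The gene lies on mm10 chromosome 17 from 28328471 to 28331033, plus strand, and a noncoding RNA gene, CT025652.2, overlaps it on the opposite strand, so reads of the pair may not have been separated. GENCODE also names 3 pseudogene loci of Rpl10a.

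**Figure D5:**
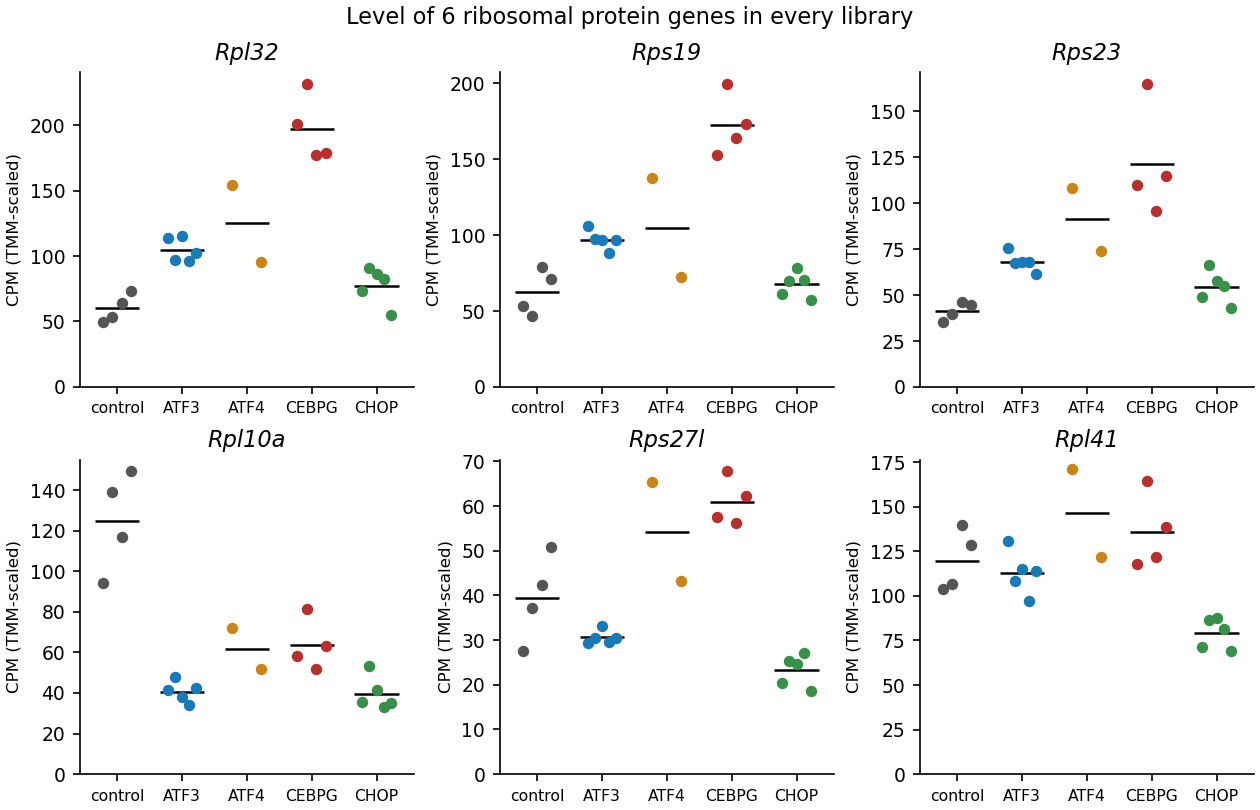
CPM in every library (points) with group means (lines) for Rpl32, Rps19, Rps23, Rpl10a, Rps27l and Rpl41, each on a linear axis from 0. Rpl32, Rps19 and Rps23 are highest in the CEBPG knockouts, Rpl10a is highest in the controls at 94.1 to 149 CPM, and Rps27l and Rpl41 are lowest in the CHOP knockouts.

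The 6 paralog copies were read one by one beside the genes they derive from. Rps27l, a paralog of Rps27 whose gene is a known target of p53, was at 27.6, 37.1, 42.4 and 50.9 CPM in the controls. It was at 20.4, 25.4, 24.7, 27.0 and 18.5 CPM with CHOP knocked out (-0.77, SE 0.17, adjusted p = 0.00112) and at 57.6, 68.0, 56.2 and 62.2 CPM in the CEBPG knockouts (0.63, SE 0.18, adjusted p = 0.00939), so that neither group overlapped the controls. It was at 29.4 to 33.2 CPM in the ATF3 knockouts, inside the range of the controls (-0.37, SE 0.17, adjusted p = 0.104). Within batch 3 the CEBPG and CHOP knockouts differed by 1.39 (SE 0.17, adjusted p = 2.13e-06). Its parent Rps27 was at 6.88 RPKM in the controls against 79.2 RPKM for Rps27l, and did not pass in any comparison.

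The other copies were as follows. Rpl22l1, which can replace Rpl22, rose in the ATF4 knockouts (1.12, SE 0.21, adjusted p = 0.000302), where Rpl22 did not pass (0.19, SE 0.24, adjusted p = 0.60). Rpl36al, a retrotransposed copy of Rpl36a, rose in the ATF4 (0.77) and CEBPG knockouts (0.73, SE 0.16, adjusted p = 0.000762). Rpl36a had changes of 0.76 and 0.59 that did not pass (adjusted p = 0.0566 and 0.0723). Rps4l, annotated by GENCODE as a transcribed processed pseudogene inside Tmtc1, rose with ATF4 knocked out (0.52, SE 0.17, adjusted p = 0.0201) and had a change of -0.21 in the CEBPG knockouts (adjusted p = 0.267), where Rps4x rose by 1.13. Rpl39l was at 0 in the controls, had at most 0.722 CPM in any library, and passed in no comparison. Of the parents, Rpl7, Rpl39 and Rps4x rose in the CEBPG knockouts against control, and Rpl22, Rpl36a and Rps27 did not pass. Of the copies, Rps27l and Rpl36al rose there.

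By place in the ribosome, the small-subunit genes had a median of 0.94 in the CEBPG knockouts against control with 30 of 33 called higher, and the large-subunit genes a median of 0.75 with 37 of 50. The corresponding medians were 0.80 and 0.70 for CEBPG against CHOP, and 0.87 and 0.81 for ATF4 against control. The 4 stalk genes, which recruit translation factors, all rose in the CEBPG knockouts, from 0.47 for Rplp0 to 1.23 for Rpl12. Rps2 and Rps3 of the messenger RNA entry channel rose by 0.88 and 0.94, and the 3 genes of the exit channel, Rps26, Rps28 and Rpsa, by 0.89, 0.82 and 1.11. Rps6, the substrate of S6 kinase, was at 72.4 RPKM in the controls and 144 RPKM in the CEBPG knockouts and rose by 0.99 (SE 0.12, adjusted p = 3.24e-07). Of 8 genes at the peptide exit tunnel 7 rose in the CEBPG knockouts, led by Rpl19 (1.14), and Rpl22 did not pass (0.18).

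The 4 genes listed here for a link to 5S ribosomal RNA or p53 were a mixed group. This list does not hold every p53-linked member. Rpl11 rose by 0.78 and Rpl23 by 0.59 in the CEBPG knockouts, while Rpl5, which joins Rpl11 on 5S ribosomal RNA, had a change of 0.03 (SE 0.14, adjusted p = 0.898) and Rpl26 of 0.15 (SE 0.70). Rpl5 passed in none of the 7 comparisons, with changes from -0.30 to 0.33. Rps27a, which encodes S31 fused to ubiquitin, rose by 0.53 in the CEBPG and 0.59 in the ATF4 knockouts.

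Other genes of the translation machinery were read from the same fit, where 18.3% of all genes rose and 15% fell in the CEBPG knockouts against control, and 13.5% and 13.2% against the CHOP knockouts. Among 32 translation factor genes, 13 (40.6%) rose and 0 fell in the CEBPG knockouts against control with a median of 0.29, and 12 (37.5%) rose and 0 fell against the CHOP knockouts with a median of 0.15. Eef1a1, the elongation factor that carries aminoacyl-tRNA and itself has a TOP tract, was at 398 CPM in the controls and 1035 CPM in the CEBPG knockouts (1.38, SE 0.11, adjusted p = 8.56e-10). Of 15 further ribosome-bound or TOP transcripts, 7 (46.7%) rose and 2 (13.3%) fell in the CEBPG knockouts with a median of 0.36. Those that rose included Fau (0.74), which encodes a ribosomal protein fused to a ubiquitin-like domain, and Tpt1 (1.01), and those that fell were Snhg5 (-0.83) and Snhg1 (-0.85), noncoding hosts of small nucleolar RNAs. In the ATF4 knockouts 7 (46.7%) rose and 0 fell in that list, against 16.6% and 14.6% of all genes, with Tpt1 at 1.03.

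Genes that build ribosomes were counted separately. Among 38 ribosome biogenesis genes 2 (5.26%) rose and 5 (13.2%) fell in the CEBPG knockouts against control, with a median of -0.04, and both shares were below those of all genes. Heatr1 rose by 0.74 and Wdr12 by 0.45, and Utp3 fell by 0.98. In the ATF3 and CHOP knockouts 2 (5.26%) rose and 9 (23.7%) fell in each, with medians of -0.19 and -0.12. Of all genes, 18.6% rose and 14.8% fell for ATF3, and 18.1% rose and 15.4% fell for CHOP. The share that fell was thus above that of all genes in these groups. Against the CHOP knockouts 4 (10.5%) rose and 0 fell in the CEBPG knockouts, Nhp2 by 0.69 and Sbds, a release factor for the large subunit, by 0.50 among them. Of 19 RNA polymerase I genes 2 (10.5%) rose and 1 (5.26%) fell in the CEBPG knockouts against control, and 3 (15.8%) rose and 0 fell against the CHOP knockouts, including Polr1d (0.63). Among 34 genes listed under mTORC1 and its control 4 (11.8%) rose and 6 (17.6%) fell against control, near or below the shares of all genes. Those that rose were Myc, Pdk1, Rheb and Akt1. The list is broad, and Myc and Pdk1 are not components of the mTORC1 pathway itself. In the list the largest changes were in Ddit4 and Myc. Ddit4, an inhibitor of mTORC1, was at 42.9 CPM in the controls and 11.7 CPM in the CEBPG knockouts (-1.87, SE 0.34, adjusted p = 0.00014). The transcription factor gene Myc was at 9.99 and 23.8 CPM (1.26, SE 0.26, adjusted p = 0.000473). Ddit4 also fell in the ATF3 (-2.37) and CHOP knockouts (-2.20), and had a change of -0.27 in the ATF4 knockouts (adjusted p = 0.674). Myc had changes of -0.05, 0.27 and 0.55 in the ATF3, ATF4 and CHOP knockouts that did not pass (adjusted p = 0.894, 0.552 and 0.0876). It was higher in CEBPG than in CHOP knockouts (0.71, SE 0.24, adjusted p = 0.0286).

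A narrower result came from the authors' deposited table of their own comparisons. Of the 83 genes, the authors' deposited table has 53 higher and 0 lower at FDR below 0.05 in the CEBPG knockouts, with a median log fold change of 0.69, where 11.8% of its 17100 genes were higher and 10.3% lower. The authors' deposited table gave 0 higher and 0 lower for the ATF3, ATF4 and CHOP knockouts, with medians of 0.15, 0.19 and -0.21. Its largest rises in the CEBPG knockouts included Rps23 (1.31), Rpl32 (1.29) and Rps19 (1.23) in the authors' deposited table. For Rpl10a the authors' deposited table gave -0.74, -1.49, -0.50 and -0.83 (ATF3, ATF4, CEBPG and CHOP in that order), none under its FDR threshold. The model, covariates and samples behind that table were not given in the sources used here.

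Within the set, the size of a gene's change had little relation to its other measured properties. Across the 83 genes the Spearman rank correlation of the CEBPG against CHOP change was -0.21 with transcript length, 0.05 with GC content and 0.14 with mean level. For CEBPG against control the 3 values were 0.04, 0.02 and 0.16, and for ATF4 against control -0.21, -0.0014 and -0.25. These describe genes measured in the same libraries, which are not independent.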

How the data were processed

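Sorted cells were sequenced with SMART-Seq v4 libraries, per the labels' protocols. Alignment to mm10 and counting involved STAR, Picard and HTSeq, per the submitters' processing notes, which also list edgeR and give no versions. The annotation and the strand setting of the counting were not given in the sources used here. Deposited by the authors were raw counts of reads per gene, a table of log2 fold changes, whose base is taken as 2, with p-values and FDR values, and a sample sheet, from which age, sex, batch, the duplicate fraction (48.0% to 57.6% when written as percent) and the first quality component, a score, were used. The sheet's other 41 columns with values per sample were left aside, since some headers appear shifted. A library titled as control but given a CHOP knockout genotype was left out.

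The analysis used edgeR 4.0.16 in R 4.3.3. filterByExpr (minimum count 10) removed 367 genes and kept 16797, libraries were scaled by TMM, and all 20 libraries entered 1 robust quasi-likelihood fit (15 residual degrees of freedom, and a biological coefficient of variation of 0.407), with Benjamini-Hochberg adjustment over all genes. Adjusted p-values are from this test. DESeq2 1.42.0 and other settings were alternatives. The fit was tested on simulated data. Transcript lengths and positions are from GENCODE M21 (mm10). The labels do not tie libraries to animals, so the p-values cover only the spread among these libraries, possibly technical. Within each group no library was a copy of another (chi-square per gene 12.9 to 64.6).

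The members, the lists and most tests were chosen with earlier results of these data known. Named members are the 5 largest rises and falls per comparison among called members with a mean of at least 5 CPM, paralog copies and their parents, the 5 highest and lowest per length in the controls, and up to 4 called genes per direction in each pathway list; genes of a fixed place in the ribosome are named by that list. Some genes that this rule or the lists would name are not reported here. Replicate numbers did not pair the libraries (0 of 12 pairs with the same number had a correlation over 0.1).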

Additional observations from a re-analysis of the deposited data

Results flagged for a closer look

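Of 139 groups of 4 or 5 libraries in the read share and named ribosomal protein genes, 4 held a library far from the others of its group by Dixon's test at 95%, where chance flags about 1 in 20 groups. Rpl22l1 was at 41.9 CPM in ATF3 replicate 6, below the others, and Rpl39l was at 0.0647 CPM there and at 0 in the other ATF3 knockouts. Rps27l was at 33.2 CPM in ATF3 replicate 7. Rpl4 was at 312 CPM in CHOP replicate 3.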

How the results depend on the processing

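The direction of the median of the 83 genes was the same in every alternative run, and no result reversed. Counts of genes in a direction with more than 1 call that moved by over 1.5 times, or medians that moved beyond the spread between libraries, are these. With the replicate number as a block, 3 genes rose for ATF4 and 1 rose and 1 fell for CHOP against control, 0 rose for ATF3 and 11 for CEBPG against CHOP, and 17 fell for ATF3 against CEBPG; the numbers do not pair the libraries. Under the block 26 rose for ATF3 and 47 for CEBPG against control. Of all genes, 613 rose there for ATF4, 2509 for ATF3 and 1645 for CEBPG, and 1586 rose and 1133 fell for CHOP, against control. Within batch 3, 11 of all genes rose for ATF3 and 415 for CEBPG against CHOP, and 883 fell for ATF3 against CEBPG. The share of members that rose was about that of all genes for ATF4, and larger for CEBPG against CHOP. With the length trend removed, 33 rose for ATF4 (median 0.37) and 23 for CHOP against control. In that fit 2559 of all genes rose for ATF4 and 2796 for CHOP. With the GC trend removed, 7 rose for ATF3 against CHOP, and 10 with DESeq2 and 20 with only these 2 groups. The numbers over all genes were 271, 418 and 620 in that order. With the first quality component, 4 rose for ATF3, 1 rose and 3 fell for CHOP against control, 2 rose for ATF3 against CHOP and 25 fell for ATF3 against CEBPG. Over all genes in that fit, 1085 rose for ATF3, and 1811 rose and 1505 fell for CHOP, against control. There 206 of all genes rose for ATF3 against CHOP and 1076 fell for ATF3 against CEBPG. Without both CEBPG replicates 6 and 8, chosen after seeing the data, 24 members and 1334 of all genes fell for ATF3 against CEBPG. The cause of these moves was not tested.

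Leaving out 1 library at a time, 22 to 44 genes rose for ATF3, 29 to 70 for ATF4 (median 0.55 to 1.08), 62 to 67 for CEBPG and 3 to 10 for CHOP against control, where 4 to 6 fell. For ATF3 against CHOP 0 to 4 rose, for ATF3 against CEBPG 26 to 38 fell and for CEBPG against CHOP 65 to 73 rose. The mean read share then stayed between 0.802% and 0.861% for CEBPG and between 0.419% and 0.464% for the controls. With 1 ATF4 library left, its spread is taken from the other groups. Counts against control were also low for CHOP without control replicates 4 or 5 (3 each). In a direction with 0 or 1 call the count ran from 0 to 3 (3 fell for ATF3 against control with the GC trend removed), and 10 such counts moved by over 1.5 times. Of the values of single genes under all alternatives, 678 kept their side of the threshold and 74 no longer passed. The 2 ATF4 libraries and the 6401446 reads of the smallest control limit the precision there.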
